A study of Oryza sativa Japonica Group with 3 samples.

Results

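The 10 genes described here are aquaporins of rice (Oryza sativa, Japonica group): 7 plasma membrane intrinsic proteins (PIP1;1, PIP1;2, PIP1;3, PIP2;1, PIP2;2, PIP2;3 and PIP2;5) and 3 tonoplast intrinsic proteins (TIP1;1, TIP2;1 and TIP2;2). The genes were chosen by locus identifier, and all 10 were found among the 55759 annotated loci. Each stood above 0 in every library and had a mean of at least 10 FPKM (fragments scaled by transcript length and library size), as did 9265 annotated loci in all. The study compared messenger RNA of whole seedlings of the cultivar Xindao-18 grown from untreated seed (control) or from seed implanted with a beam of nitrogen ions. The low fluence library held RNA of seedlings given 1 or 2, and the high fluence library of those given 6 or 8, in units of 1e+17 ions per square centimetre, where the exponent was read from labels that write it without superscript. Seedlings were kept on wet filter paper at 28 °C under cycles of 12 h light and 12 h dark, and buds were taken at 96 h. The labels describe low fluence as giving no significant damage and high fluence as giving significant damage, an effect read on the seventh day, after sampling.

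Each group was 1 library. The control was 1 pool of RNA from 50 buds of similar height, and each irradiated library mixed 10 µg from each of 2 such pools. With no replicate, no comparison was tested, and no difference below can be set against a spread between seedlings or libraries. In RNA of whole seedlings, fewer cells of a type and less RNA per cell cannot be told apart. The libraries listed 45129 to 50141 of 87523 transcripts above 0. Depth is not stated with FPKM. Low values of single-transcript loci, which are whole multiples of the value of 1 fragment, gave a depth of 0.502 times the control at low fluence and 1.36 times at high fluence. These hold only up to a simple ratio of whole numbers, since the same estimate gave 1.35 for high over low fluence, where the other values imply 2.71.

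Aquaporins are channel proteins that let water, and in some cases small solutes, cross a membrane along its gradient. PIPs sit mainly in the plasma membrane and carry water into and out of the cell. Many PIP1 proteins reach that membrane only when paired with a PIP2, and PIP2 proteins are often the stronger water channels when tested alone. TIPs sit in the tonoplast, the membrane of the vacuole, whose filling with water accompanies the enlargement of growing cells. In rice, PIP2;3, PIP2;5 and TIP2;1 are known as forms found mainly in roots and are called root forms here, the last being the root-form TIP. The other 7 members are found in shoots as well or less strictly in roots.

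In FPKM as deposited, all 10 aquaporins were lower in the high fluence library than in the control, and PIP1;2 and TIP2;2 alone turned higher under 1 of 4 other scalings, given below. Of the 9265 annotated loci, 63.5% were lower. The median log2 ratio of the 10 was -1.13 on the scale of FPKM + 1, which is used for every log2 ratio and fold of a single gene below, and that of the annotated loci was -0.15. Of the 10, 6 were at least 2-fold lower and none was at least 2-fold higher, where 5.2% of annotated loci were at least 2-fold lower and 2.37% at least 2-fold higher. Rescaling each library to a total of 1000000 over all transcripts left 1 of the 10 at least 2-fold lower, where 0.917% of annotated loci were, with a median of -0.28 for the 10 and 0.64 for annotated loci. As deposited, low fluence lay closer to the control: 8 of the 10 were lower, where 59.4% of annotated loci were. The 10 had a median log2 ratio of -0.33 against -0.07 over those loci. After rescaling to a total of 1000000, the median at low fluence was -0.46 for the 10 and -0.19 for annotated loci. By the median of the 10, low fluence then lay farther from the control than high fluence. None of the 10 differed 2-fold at low fluence, where 2.01% of annotated loci did so in either direction. The summed level of the 10 was 9467 FPKM without ions, 7163 after low and 4897 after high fluence, or 1.56%, 1.22% and 0.926% of the FPKM sum of annotated loci. The log2 ratio of the high fluence sum to the control sum was -0.95 as deposited and -0.09 after rescaling to a total of 1000000.

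**Figure D1:**
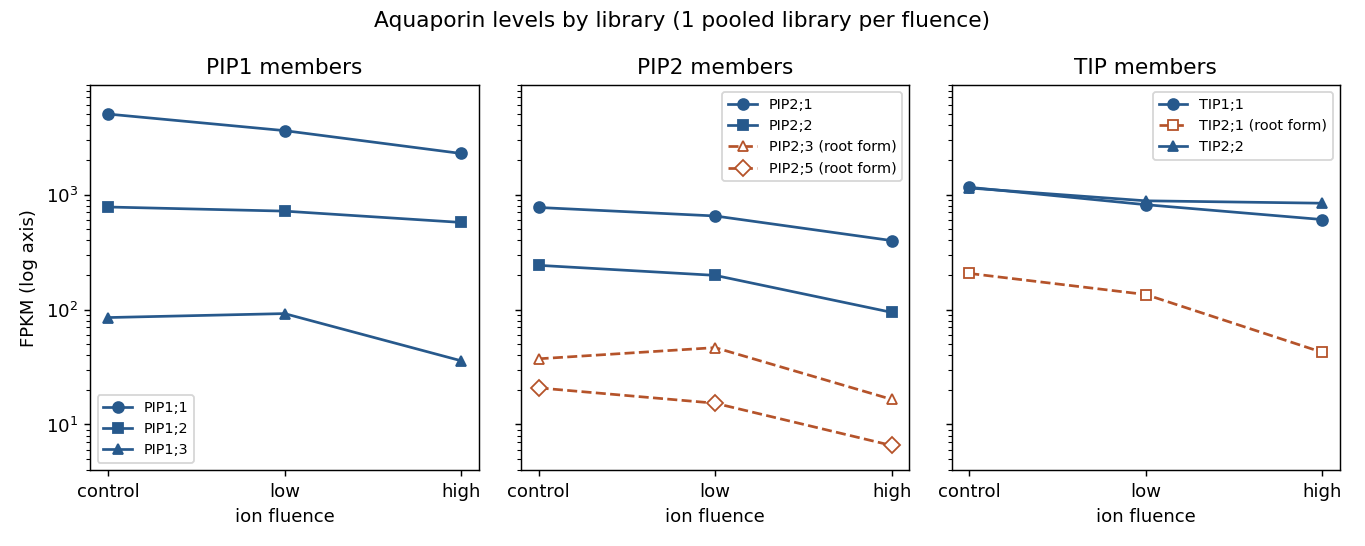
Level of each aquaporin in FPKM (log axis) in the control, low fluence and high fluence libraries, with 1 panel per subfamily and 1 pooled library per point. Open symbols and dashed lines mark the 3 root forms. In FPKM as deposited each line ends lower at high fluence than in the control, and the root-form TIP ends at 42.4 FPKM, against 842 FPKM for the other TIP2.

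Among the PIP1 proteins, PIP1;1 (LOC_Os02g44630, chromosome 2) dominated the family and ranked 4 among all annotated loci by mean FPKM. It stood at 5022 FPKM without ions, 3604 after low and 2281 after high fluence. As deposited, high fluence was thus lowest, 2.20-fold below control, and low fluence lay between. Rescaling to a total of 1000000 gave log2 ratios of -0.28 for high fluence over control and 0.35 for high over low fluence, so that low fluence was then lowest. This gene supplied 53.0% of the summed FPKM of the 10 members without ions, 50.3% after low and 46.6% after high fluence. Most of it came from 1 of its 3 annotated transcripts. LOC_Os02g44630.2 held 89.2% of the locus without ions, 86.8% after low and 83.7% after high fluence, and LOC_Os02g44630.1 held 10.8%, 13.2% and 16.2%. At high fluence over control the first had a log2 ratio of -1.23 and the second one of -0.55, so both were lower but not equally so. The rule by which reads were divided between them was not known.

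PIP1;2 (LOC_Os04g47220, chromosome 4) was among the members that differed least. Its level was 780.3 FPKM without ions, 718 after low and 573 after high fluence, 1.36-fold below control at high fluence, and 25.6% of annotated loci had a lower ratio. It amounted to 0.155 of the level of the dominant PIP1 without ions, 0.199 after low and 0.251 after high fluence. Such a ratio within a library does not depend on how libraries are scaled to each other. PIP1;3 (LOC_Os02g57720, chromosome 2), first described as a water channel of rice under the name RWC3, stood at 85.2 FPKM without ions, 92.2 after low and 35.9 after high fluence. Here both other libraries lay above high fluence, which was 2.34-fold below control and 2.53-fold below low fluence, while low fluence was 1.08-fold above control.

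Among the PIP2 proteins, PIP2;1 (LOC_Os07g26690, chromosome 7) was the most abundant, at 773 FPKM without ions, 652 after low and 398 after high fluence. It was 1.94-fold below control at high fluence, just under the 2-fold limit. PIP2;2 (LOC_Os02g41860, chromosome 2) stood at 243 FPKM without ions, 198 after low and 94.5 after high fluence, 2.55-fold below control, and only 2.30% of annotated loci had a lower ratio. Its transcript LOC_Os02g41860.2 held 91.6% of the locus without ions, 93.2% after low and 90.2% after high fluence. As deposited, for both genes the control was highest, high fluence lowest and low fluence between. Rescaling to a total of 1000000 turned the log2 ratio of high over low fluence to 0.29 for the first, whose lowest library was then low fluence.

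The PIP2 root forms were the least abundant members in each library. PIP2;3 (LOC_Os04g44060, chromosome 4) stood at 37.3 FPKM without ions, 46.7 after low and 16.5 after high fluence, 2.18-fold below control and 2.72-fold below low fluence at high fluence. It was 1 of only 2 members above control at low fluence, by 1.24-fold, the other being the RWC3 gene. PIP2;5 (LOC_Os07g26660, chromosome 7) stood at 20.8 FPKM without ions, 15.3 after low and 6.57 after high fluence, 2.88-fold below control. Of annotated loci, 1.64% had a lower ratio. Its locus number lies close to that of the most abundant PIP2 on chromosome 7, and near-identical stretches can share reads, so their values may not be fully separate.

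Among the TIPs, TIP2;1 (LOC_Os02g44080, chromosome 2), a root form, differed most of all 10 members. It stood at 206 FPKM without ions, 135 after low and 42.4 after high fluence, 4.77-fold below control at high fluence and 1.52-fold below it at low fluence. At high fluence 0.529% of annotated loci had a lower ratio. It was the only member past 1.5-fold at low fluence, where 4.33% of annotated loci were at least 1.5-fold lower. TIP2;2 (LOC_Os06g22960, chromosome 6), of the same TIP2 class, stood at 1141 FPKM without ions, 883 after low and 842 after high fluence, 1.36-fold below control. The level of this gene was 5.53 times that of the root-form TIP without ions, 6.54 times after low and 19.8 times after high fluence. TIP1;1 (LOC_Os03g05290, chromosome 3), a highly expressed tonoplast water channel, stood at 1158 FPKM without ions, 817 after low and 607 after high fluence, 1.91-fold below control.

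The direction of the 2 weakest differences depended on scaling. The FPKM sum over all transcripts was 1652750 at high fluence and 3005650 in the control, whereas that over annotated loci was 528840 at high fluence and 607972 in the control. Rescaling each library to a total of 1000000 over all transcripts shifted the median log2 ratio of annotated loci by 0.79 at high fluence over control, and LOC_Os04g47220 and LOC_Os06g22960 then had log2 ratios of 0.42 and 0.42, while the other 8 members remained below control. Under median-of-ratios scaling, upper-quartile scaling and equal sums over annotated loci, all 10 stayed below control. Equal sums over annotated loci shifted that median by 0.19 and left 4 members at least 2-fold lower, where 3.42% of annotated loci were.

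**Figure D2:**
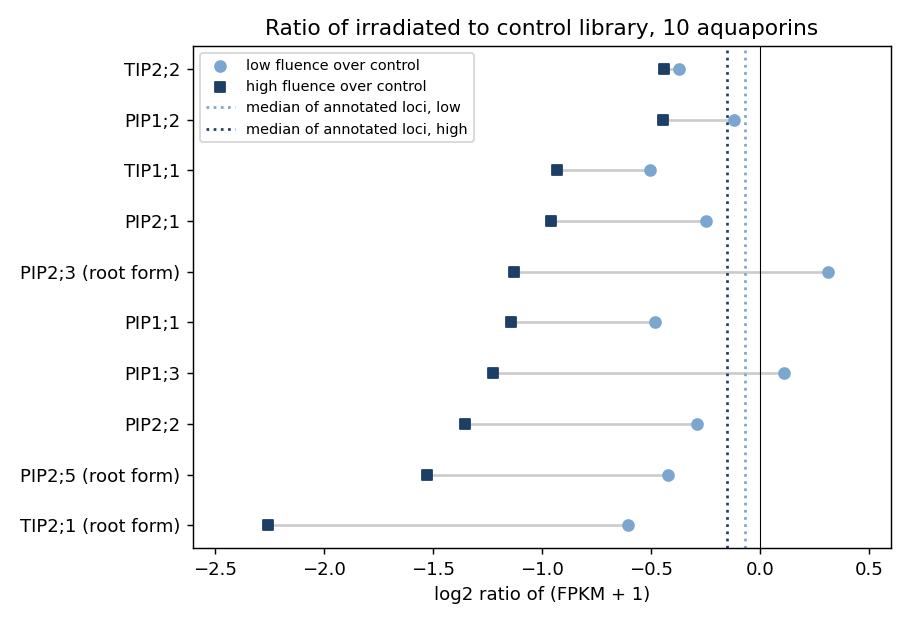
Log2 ratio of (FPKM + 1) over control for each of the 10 aquaporins, at low fluence (circles) and high fluence (squares), ordered by the ratio at high fluence, with dotted lines at the medians of 9265 annotated loci. Squares run from -0.44 in the top row to -2.25 in the bottom row, and circles from 0.32 for PIP2;3 to -0.61 for the root-form TIP.

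By subfamily, the summed PIP1 level was 5888 FPKM without ions, 4415 after low and 2890 after high fluence, the PIP2 level 1074, 912 and 516 FPKM, and the TIP level 2506, 1836 and 1491 FPKM in the same order. Rescaling to a total of 1000000 turned the TIP sum higher at high fluence, with a log2 ratio of 0.11 over control, and left both PIP sums lower. TIPs made up 26.5% of the sum without ions, 25.6% after low and 30.5% after high fluence, whereas PIPs made up 73.5%, 74.4% and 69.5%. The larger TIP share at high fluence came with LOC_Os06g22960, which supplied 12.1% of the sum without ions, 12.3% after low and 17.2% after high fluence. The order of the levels hardly varied. In the control it ran from PIP1;1 through TIP1;1, TIP2;2, PIP1;2, PIP2;1, PIP2;2, TIP2;1, PIP1;3 and PIP2;3 down to PIP2;5, and in both irradiated libraries the second and the third of these had changed places and the rest had not. FPKM is scaled to transcript length, so levels of different genes can be set side by side, but with 1 library per group no spread is known for any pair of neighbours in that order. The closest neighbours in the control were the second with the third and the fourth with the fifth.

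**Figure D3:**
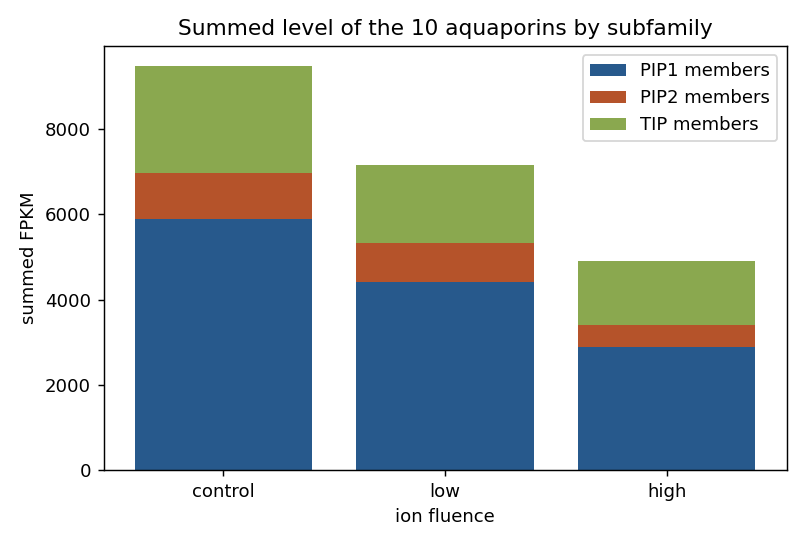
Summed FPKM of the 3 PIP1, 4 PIP2 and 3 TIP members, stacked, in the control, low fluence and high fluence libraries (1 pooled library per bar). The stack is 9467 FPKM high without ions, 7163 after low and 4897 after high fluence, and PIP1 members form the largest part of each bar.

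The root forms were set against the other members. At high fluence over control their median log2 ratio was -1.53, against -0.96 for the other 7 members, a difference of -0.57 on the log2 scale. The root-form TIP and PIP2;5 had the 2 lowest ratios of all members, but PIP2;3, at -1.13, lay within the range of the other 7, from -1.35 to -0.44, so the groups overlapped. The summed level of the root forms was 264 FPKM without ions, 197 after low and 65.5 after high fluence, and their share of all 10 members was 2.79%, 2.75% and 1.34%. As deposited, the 3 root forms were each at least 2-fold lower at high fluence than in the control, as were 3 of the other 7, where 5.2% of annotated loci were. PIP2;3 fell short of 2-fold with a pseudocount of 5 (-0.97), equal sums over annotated loci (-0.94) and assembled units added (-0.92). After rescaling to a total of 1000000 it had -0.28, and only the root-form TIP, at -1.38, was still at least 2-fold lower. Over all alternatives the difference of the medians at high fluence over control was -0.94, without PIP2;3, to -0.21, with a pseudocount of 5. Without the root-form TIP it was -0.37. At low fluence over control the difference was -0.13, and it turned to 0.24 without the root-form TIP, to 0.14 without LOC_Os07g26660 and to 0.18 with the RWC3 gene counted as a root form. No test of these differences can be made with single libraries.

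High fluence was also set against low fluence. In FPKM as deposited all 10 members were below their low fluence level at high fluence, where 59.8% of annotated loci were, but only 9 with equal sums over annotated loci and 5 after rescaling to a total of 1000000. Their median log2 ratio was -0.89 against -0.09 over annotated loci. With equal sums over annotated loci the 2 medians were -0.73 and 0.06. The rescaling to 1000000 turned that of the 10 to 0.11 and that of annotated loci to 0.83. With equal sums over annotated loci, 3 members were at least 2-fold lower, where 1.95% of annotated loci were. As deposited, 5 members were at least 2-fold lower, where 2.97% of annotated loci were. The 5 were the 3 root forms, the RWC3 gene and PIP2;2. The high fluence level of the root-form TIP was 3.13-fold under its low fluence level. TIP2;2, with 842 FPKM after high against 883 FPKM after low fluence, was only 1.05-fold lower. With ratios centred on the 200 loci nearest in mean FPKM it was higher, with a log2 ratio of 0.19. That ratio was 0.08 with equal sums over annotated loci and 0.93 after rescaling to a total of 1000000. As deposited, low fluence lay between control and high fluence for 8 of the 10 members, where 51.9% of annotated loci had that order. The comparisons share libraries, so these counts are not independent of each other.

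Loci nearest in abundance to the members were also somewhat lower at high fluence. For the 200 annotated loci nearest in mean FPKM to each member, the median log2 ratio of high fluence over control lay between -0.39 for the set around LOC_Os02g41860 and -0.08 for the set around LOC_Os07g26660. With each member's ratio taken relative to that median, an alternative chosen after the data had been seen, the median of the 10 was -0.87 and 4 members were at least 2-fold lower. No share of loci was taken after centring, so that count has no background beside it. Before centring, 2.5% to 13.0% of the 200 loci around each member were at least 2-fold lower. After centring, the root-form TIP had -1.99 and LOC_Os07g26660 had -1.45, whereas LOC_Os04g47220 had -0.10 and LOC_Os06g22960 had -0.09. For the abundant members the 200 loci spanned a wide range of levels, so they were only loosely of like level. Their means ran from 277 to 940 FPKM around LOC_Os04g47220, and from 283 to 1557 FPKM around LOC_Os06g22960. Around LOC_Os02g44630 they ran from 291 to 4525 FPKM.

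A list of 17 further aquaporin loci gave the rest of the family. Of these, 10 had a mean of at least 10 FPKM and 2 were listed at 0 in all libraries. At high fluence over control as deposited, 2 of these 10 were at least 2-fold lower and 2 at least 2-fold higher, with a median log2 ratio of -0.24. Over the 9265 annotated loci the shares were 5.2% lower and 2.37% higher by that limit, and the median was -0.15. PIP2;4 (LOC_Os07g26630), a root aquaporin from the same stretch of chromosome 7, stood at 116 FPKM without ions, 91.2 after low and 28.9 after high fluence, 3.90-fold below control. TIP1;2 (LOC_Os01g74450) stood at 30.2, 23.4 and 6.40 FPKM in the same order, 4.22-fold below control at high fluence. Of the 10 members, only the root-form TIP had a lower ratio than these 2 genes.

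A pair of loci went the other way. PIP2;7 (LOC_Os09g36930) had 1.26 FPKM without ions, 8.94 after low and 23.0 after high fluence, 10.6-fold above control. It passed the minimum mean of 10 FPKM only through the high fluence library, so its place among the higher loci followed in part from that filter. TIP4;1 (LOC_Os05g14240) had 22.5, 33.4 and 52.8 FPKM, 2.29-fold above control at high fluence. For both, low fluence lay between the other libraries, in the opposite order to most members. Their levels at high fluence were small beside that of the dominant PIP1.

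The nodulin 26-like and small basic intrinsic proteins lay closer to control. NIP2;1 (LOC_Os02g51110), the root silicon influx channel known as Lsi1, had 160 FPKM without ions, 194 after low and 231 after high fluence, 1.45-fold above control. NIP1;1 (LOC_Os02g13870) stood at 101, 110 and 115 FPKM, within 1.13-fold as deposited. Rescaling to a total of 1000000 gave log2 ratios of high fluence over control of 1.38 for NIP2;1 and 1.02 for NIP1;1. By that scaling 1895 of 9265 annotated loci were at least 2-fold higher. NIP3;1 (LOC_Os10g36924), known for boron transport, stood at 61.8, 76.3 and 43.4 FPKM, and NIP2;2 (LOC_Os06g12310), the silicon channel Lsi6, at 31.2, 27.6 and 19.7 FPKM, 1.56-fold below control at high fluence. SIP1;1 (LOC_Os01g08660), at 40.2, 39.6 and 37.3 FPKM, and SIP2;1 (LOC_Os03g20410), at 20.7, 21.5 and 15.8 FPKM, both differed less than 1.5-fold in each comparison. Rescaling to a total of 1000000 turned the NIP and SIP genes that were lower at high fluence to higher, with log2 ratios over control of 0.18 for LOC_Os06g12310, 0.34 for LOC_Os10g36924, 0.71 for LOC_Os01g08660 and 0.42 for LOC_Os03g20410, and SIP1;1 was also turned, to 0.09, by equal sums over annotated loci, while LOC_Os07g26630, LOC_Os01g74450, LOC_Os09g36930 and LOC_Os05g14240 kept their direction under each scaling.

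**Figure D4:**
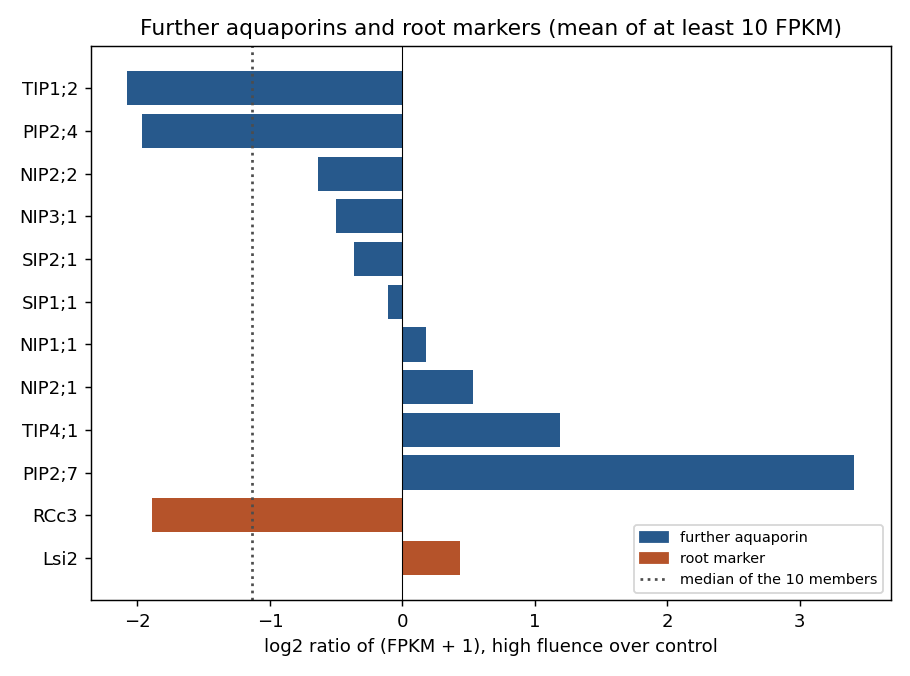
Log2 ratio of (FPKM + 1) at high fluence over control for the 10 further aquaporins and 2 root markers with a mean of at least 10 FPKM. The dotted line marks the median of the 10 members. Bars of the aquaporins run from -2.08 to 3.41, and the root markers RCc3 and Lsi2 point in opposite directions.

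Markers of roots and green shoots were read beside these values, since a whole seedling holds both organs. The 4 root markers differed in direction. RCc3 (LOC_Os02g44310), a root-specific gene, stood at 624 FPKM without ions, 379 after low and 167 after high fluence, 3.71-fold below control. As deposited, 8 of the 10 members had that order of libraries, root forms and others alike, but the root form PIP2;3 did not. Lsi2 (LOC_Os03g01700), the root silicon efflux transporter, had 114, 127 and 154 FPKM, 1.35-fold above control at high fluence, as its partner Lsi1 was above control too. After rescaling to a total of 1000000 the log2 ratio of Lsi2 was 1.28, where the median of annotated loci was 0.64. The nitrate transporter NRT2.1 (LOC_Os02g02170) and the ammonium transporter AMT1;2 (LOC_Os02g40710) stayed under 1 FPKM throughout. Summed over the 4, the level was 737 FPKM without ions, 507 after low and 322 after high fluence, nearly all from RCc3 and Lsi2. The part of root content in the lower aquaporin levels was not tested.

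The 6 green shoot markers were uneven as well. The light-harvesting genes LOC_Os01g41710, LOC_Os03g39610 and LOC_Os09g17740 had 173, 242 and 198 FPKM in control seedlings. Low fluence gave 199, 309 and 250 FPKM for these genes, and high fluence gave 4.97, 3.18 and 3.23 FPKM. The Rubisco small subunit loci LOC_Os12g17600 and LOC_Os12g19470 had 164 and 52.2 FPKM in control seedlings, with 348 and 72.7 FPKM under low and 306 and 47.5 FPKM under high fluence. For LOC_Os12g19470 the log2 ratio of high fluence over control was -0.13 as deposited. It turned to 0.06 with equal sums over annotated loci and to 0.70 after rescaling to a total of 1000000. Each other marker with a mean of at least 10 FPKM kept its direction under each scaling. The Rubisco activase locus LOC_Os11g47970 was listed at 0 in each library. An assembled unit listed beside it stood at 53.1 FPKM without ions, 122 after low and 79.7 after high fluence. A unit beside LOC_Os12g19470 stood at 77.6, 126 and 50.7 FPKM in the same order. Whether such units hold reads of these genes was not tested, and the sum of the 6 markers leaves them out. The seed alpha-amylase locus LOC_Os02g52710 was listed at 31.4 FPKM without ions, at 0 after low and at 0.365 FPKM after high fluence. Summed over the 6 shoot markers, the level was 828 FPKM without ions, 1179 after low and 365 after high fluence. Light-harvesting genes differed 29.1-fold or more between high fluence and control, far more than any aquaporin described here. Their part in the aquaporin differences was not tested.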

How the data were processed

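RNA of 3 pooled libraries was sequenced, and the authors deposited 1 FPKM value per transcript and library, per the file headers. The submitters' processing notes name TopHat2 2.0.5. Quantifying program, genome build, annotation release and strandedness: not given in the sources used here. FPKM was summed over the transcripts of each locus and compared by log2 ratios after adding a pseudocount of 1, so that changes of low genes are understated. A locus counted as differing at 2-fold, and annotated loci averaging 10 FPKM or more formed the background. All 10 members are described, as is each further aquaporin with a mean of at least 10 FPKM and each marker. The members, lists and call rules were chosen with earlier results of these data known. The lists come from general knowledge: none of their 38 locus identifiers is in the reference gene table (assembly ASM3414082v1), where the names of 10 of 10 members and 16 of 17 further aquaporins occur on the chromosome of the locus. No sequences or coordinates were used. The ratio and scaling steps were tested on simulated data. Python 3.11.15 and pandas 2.3.3 were used. Alternatives were other pseudocounts, scalings, folds, background levels and root groups, the leading transcript alone, and assembled units added.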

Additional observations from a re-analysis of the deposited data

How the results depend on the processing

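No paired analysis was possible because each group has 1 library. With no replicate or count, a median log2 ratio was taken as moved past a shift of 1.5-fold. Rescaling to a total of 1000000 gave 1 member at least 2-fold lower at high fluence over control, with a median of -0.28, where 0.917% of annotated loci were lower and 1895 of 9265 at least 2-fold higher. It gave 0 at high over low fluence, with a median of 0.11 for the 10 and 0.83 for annotated loci, of which 0.443% were at least 2-fold lower. It turned the log2 ratio at high fluence over control to 0.42 for LOC_Os04g47220 and 0.42 for LOC_Os06g22960, and at high over low fluence to 0.35 for LOC_Os02g44630, 0.68 for LOC_Os04g47220, 0.29 for LOC_Os07g26690, 0.57 for LOC_Os03g05290 and 0.93 for LOC_Os06g22960. LOC_Os02g57720 at low fluence over control turned to -0.027. Equal sums over annotated loci left 3 members at least 2-fold lower at high over low fluence, where 1.95% of annotated loci were. A limit of 3-fold left 1 there and 1 at high fluence over control, and no share of annotated loci was taken at that limit. A limit of 1.5-fold gave 1 at low fluence over control, where 4.33% of annotated loci were lower by that limit. The difference of root forms from other members at low fluence over control turned to 0.18 with LOC_Os02g57720 as a root form, 0.14 without LOC_Os07g26660 and 0.24 without LOC_Os02g44080. The cause was not tested. Across pseudocounts of 0.1 and 5, median-of-ratios and upper-quartile scaling, the leading transcript alone, assembled units added and centring on loci of like level, the count at least 2-fold lower at high fluence over control was 4 to 6, and the median of the 10 was -1.18 to -0.87. Of annotated loci, 4.71% were at least 2-fold lower there under median-of-ratios and 4.32% under upper-quartile scaling. No share of annotated loci was taken under the other settings of this list, so their counts have no background beside them. Since depth is unknown, no counting error can be given for any member.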
